A study of Homo sapiens with 6 samples.

Results

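The 10 genes described here are the cyclin-dependent kinase (CDK) inhibitors of the INK4 family (CDKN2A, CDKN2B, CDKN2C and CDKN2D) and of the CIP/KIP family (CDKN1A, CDKN1B and CDKN1C), the kinases CDK4 and CDK6, and CDK14. They were taken by name from the gene count table, which lists 58735 genes, and each of the 10 names matched a single gene. The choice was made with the siC1QBP to siNC differences of these genes known, including the opposite differences of CDKN2A and CDKN2B. The values of the 10 genes in that comparison are therefore a description and carry no test.

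RNA was sequenced from HuCCT1, an established human cholangiocarcinoma line of bile duct origin, in 6 libraries. The 3 libraries named siC1QBP came from cells given a small interfering RNA (siRNA) against C1QBP, which encodes a mainly mitochondrial protein, and the 3 named siNC served as the control siRNA. No genotype, dose, time after transfection or siRNA sequence is given in the labels, and a single cell line stands for the disease. Whether the replicates were grown as separate cultures is not in the labels; the p-values given below reflect only how these libraries vary, and that variation may be technical. The study's title concerns C1QBP and a loop with PAICS, FAK and c-Myc in proliferation.

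CDK4 and CDK6, bound to D cyclins, phosphorylate the retinoblastoma protein and its relatives, which releases E2F factors and lets a cell pass from G1 into S phase. INK4 proteins bind CDK4 and CDK6 and keep them from D cyclins, whereas CIP/KIP proteins act mainly on cyclin E and cyclin A complexes with CDK2 and also take part in assembling cyclin D complexes. CDKN2A and CDKN2B are neighbours at 9p21, a locus that is often deleted in biliary cancer and other carcinomas, and CDKN2A makes the INK4 protein p16 and, from another first exon and reading frame, the p53 regulator ARF.

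Libraries held 17122252 to 18847340 counts in the siC1QBP group and 18313264 to 20416243 in the siNC group. Levels are CPM: a gene's counts divided by the library's counts in the 15530 genes tested, on the scale of 1000000 counts. These library sizes were scaled by the trimmed mean of M-values (TMM). A count of 0 allows up to 0.147 to 0.175 CPM of the library's whole count total, a limit of 3 counts that covers counting error only. C1QBP itself was at 175, 181 and 185 CPM under siNC and at 59.1, 57.6 and 60.0 CPM under siC1QBP, 32.7% of the control level (log2 fold change -1.61, SE 0.05, edgeR quasi-likelihood test, adjusted p = 1.39e-12). Mitochondrially encoded genes took 3.66% to 3.88% of counts under siNC and 4.20% to 4.80% under siC1QBP. Within each group replicate 1 stood apart: the chi-square per degree of freedom was 6.66 and 6.77 for the siC1QBP pairs with replicate 1 against 2.09 without it, and up to 3.67 against 2.13 in siNC. Of the biliary epithelial markers, KRT7, KRT19, EPCAM, SOX9 and CDH1 were all detected, and their summed level was 5389 to 5506 CPM in siC1QBP and 6096 to 6408 CPM in siNC. Of these 5, KRT7 and KRT19 were called lower at an edgeR adjusted p under 0.05 (log2 fold changes -0.26 and -0.19), and 0 were called higher. EPCAM (-0.04), SOX9 (0.14) and CDH1 (0.14) were not called. That is 40% of the 5 called, against 14.3% of all tested genes. Hepatocyte markers summed to at most 0.222 CPM with TTR at 0, immune markers to at most 0.445 CPM with CD3E at 0, fibroblast markers to at most 2.03 CPM and endothelial markers to at most 3.95 CPM. The part of these library differences in the values below was not tested. In bulk RNA, fewer cells of a kind and less RNA per cell cannot be told apart.

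The stretches just before the annotated starts of CDKN2A, CDKN2B and CDK6 are shown first, since CDKN2A and CDKN2B lie side by side and differed in opposite directions and CDK6 was the called kinase of the CDK4 and CDK6 pair. They come from RefSeq (GRCh38.p14), run 5′ to 3′ on the gene's own strand, and end before the first annotated exon. Of the 10 genes, 9 had entries, with 14 windows of 300 bases. Capitals mark matches to GGGCGG (the GC box) or CAGAC (the core bound by SMAD proteins), each on either strand. The CDKN2A stretch precedes the ARF first exon.
CDKN2A, chr9:21995325-21995574, minus strand: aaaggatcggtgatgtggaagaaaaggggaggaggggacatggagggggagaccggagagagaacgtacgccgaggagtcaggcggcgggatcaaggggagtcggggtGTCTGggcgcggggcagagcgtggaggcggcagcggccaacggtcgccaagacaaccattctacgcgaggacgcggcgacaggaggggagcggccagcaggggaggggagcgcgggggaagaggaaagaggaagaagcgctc
CDKN2B, chr9:22009364-22009555, minus strand: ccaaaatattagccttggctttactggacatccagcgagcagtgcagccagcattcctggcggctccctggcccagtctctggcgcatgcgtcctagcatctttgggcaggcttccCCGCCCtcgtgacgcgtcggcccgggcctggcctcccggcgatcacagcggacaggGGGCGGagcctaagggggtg
CDK6, chr7:92836595-92836823, minus strand: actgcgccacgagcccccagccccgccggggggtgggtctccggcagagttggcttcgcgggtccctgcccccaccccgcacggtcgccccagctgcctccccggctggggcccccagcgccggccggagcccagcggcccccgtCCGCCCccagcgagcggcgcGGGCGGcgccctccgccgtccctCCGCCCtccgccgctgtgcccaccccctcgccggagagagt
The CDKN2B stretch holds 2 GC boxes and the CDK6 stretch 3, whereas the CDKN2A stretch holds none and has a single CAGAC match. The G and C content is 66.8% for CDKN2A, 66.1% for CDKN2B and 82.1% for CDK6. Several of the 14 windows, both of CDK14 among them, lie wholly inside the gene's annotated span, so no stretch is shown here for CDK14. Among all 35116 RefSeq windows of 300 bases, whose median G and C content is 58.7%, 45.0% hold a GC box and 45.3% hold CAGAC. The window at the p16 first exon of CDKN2A holds 2 GC boxes. The windows of CDKN1A, CDK4 and CDKN2D hold 4, 3 and 3 GC boxes and that of CDKN1B 1, and the 3 windows of CDKN2C hold 0, 6 and 1. The E-box CACGTG, found in 7.26% of all windows, occurs in windows of CDKN2C, CDK6 and CDK4, with 3 matches in that of CDK4 counted over both strands. TTTNGCGC (an E2F motif), TGANTCA (AP-1) and TATAAA were found in none of the 14 windows and in 1.79%, 7.71% and 11.5% of all windows. Matches are letters in a window and not sites shown to be bound.

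All 10 genes passed the low-count filter, and 5 of the 10 were called in the edgeR fit at an adjusted p under 0.05. The background was 14.3% of the 15530 genes tested. Of the 5, 3 were higher in siC1QBP (CDKN2B, CDK6 and CDK14), against a background of 6.47% called higher, and 2 were lower (CDKN2A and CDKN2C), against 7.84% called lower. These genes were chosen on this comparison, so nothing is read from their share. The 2 groups of libraries did not overlap for 7 of the 10 genes, against 32.6% of all tested genes. The median log2 fold change of the 10 was -0.10, and that of all tested genes was 0.00255. The 5 calls held in each of 16 alternative settings, while CDKN1B and CDKN2D joined the lower calls in some. The count of lower calls was 3 without siNC replicate 1 (with CDKN1B), 3 without siC1QBP replicate 2 (with CDKN2D), and 4 when genes with at least 1 count were kept.

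**Figure D1:**
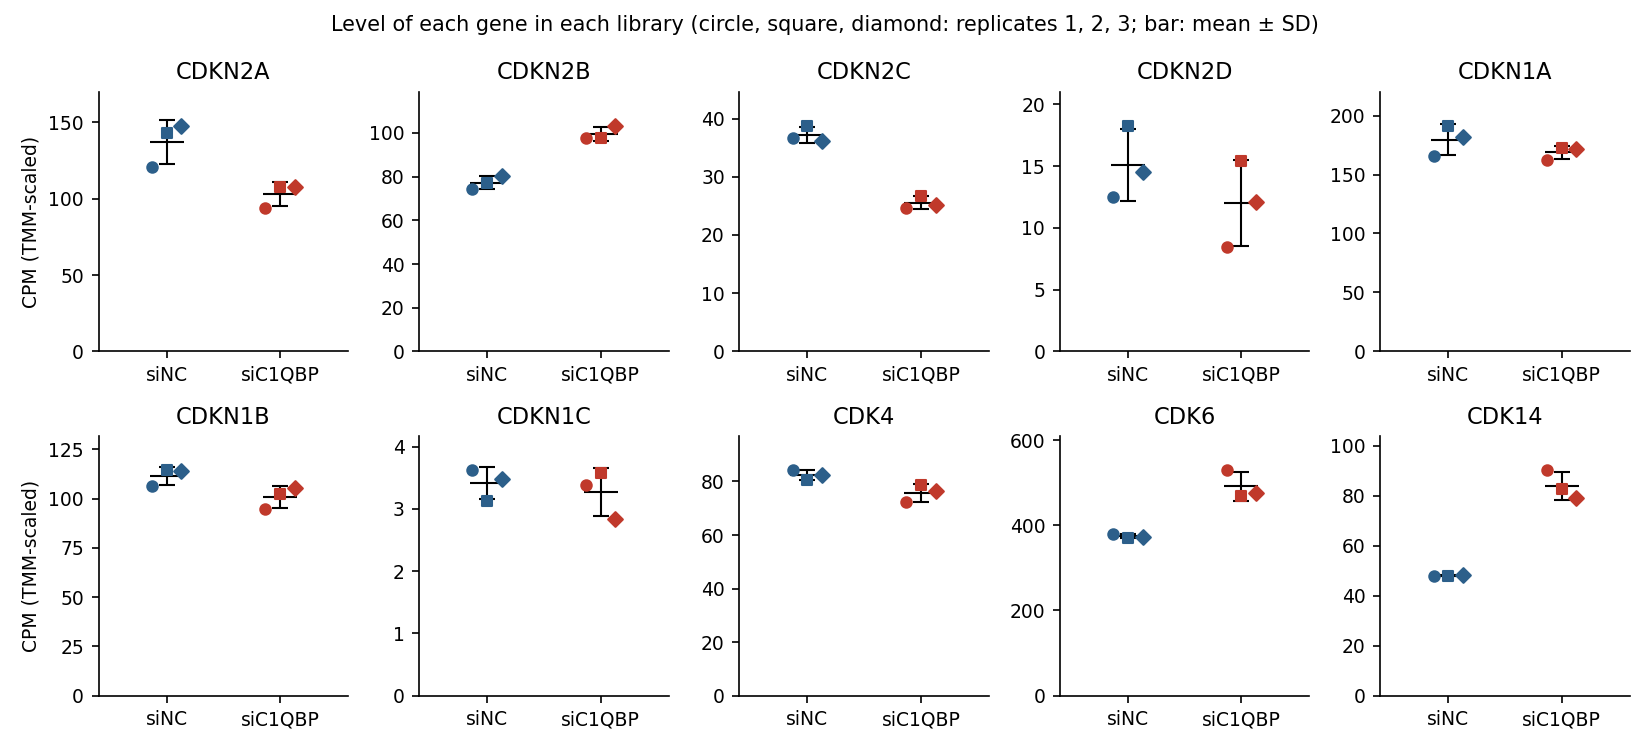
Level of each of the 10 genes in each library (CPM, TMM-scaled, each axis from 0), with siNC at the left and siC1QBP at the right of each panel, replicates 1 to 3 as circle, square and diamond, and a bar for the mean ± SD. CDKN2B, CDK6 and CDK14 lie higher in all siC1QBP libraries, CDKN2A and CDKN2C lie lower, and CDKN2D, CDKN1A and CDKN1C overlap between the groups.

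Among the INK4 genes, CDKN2A and CDKN2B differed in opposite directions. CDKN2A (ENSG00000147889, hg38 chromosome 9, 21967753 to 21995301, minus strand) was at 94.1, 108 and 107 CPM in siC1QBP replicates 1 to 3 and at 121, 143 and 148 CPM in siNC replicates 1 to 3. Replicate 1 was the lowest library of each group, and the highest siC1QBP library lay below the lowest siNC library. The means were 103 ± 7.76 and 137 ± 14.3 CPM (SD, n = 3 each), a log2 fold change of -0.41 (SE 0.07), or 75.1% of the control. Leaving out each library in turn gave -0.50 to -0.35. The gene count sums p16 and ARF transcripts, which these values cannot separate.

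CDKN2B (ENSG00000147883, chromosome 9, 22002903 to 22009363, minus strand) encodes p15, an INK4 protein known as a target of TGF-beta signalling. It was at 97.8, 97.5 and 103 CPM in siC1QBP and at 74.3, 77.2 and 80.3 CPM in siNC. All siC1QBP libraries were above all siNC libraries, with a spread within groups of 3.26% and 3.86% of the mean (coefficient of variation), against 7.53% and 10.4% for CDKN2A. The means were 99.5 ± 3.24 and 77.3 ± 2.98 CPM, a log2 fold change of 0.37 (SE 0.05), or 129% of the control, and 0.33 to 0.39 with a library left out.

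The annotated ends of CDKN2A and CDKN2B lie 7.60 kb apart, with both genes on the minus strand and CDKN2A downstream. Their summed level per kilobase of exon (CPM divided by the gene's exonic length) was 45.8, 48.9 and 50.3 in siC1QBP and 46.2, 52.0 and 53.9 in siNC, so the groups overlapped. The CDKN2A to CDKN2B ratio of these levels was 0.902, 1.03 and 0.976 in siC1QBP and 1.53, 1.74 and 1.72 in siNC. The ratio was 0.971 ± 0.0665 in siC1QBP and 1.66 ± 0.118 in siNC, a quotient of 0.584, and the groups did not overlap. That separation was fixed in advance, since CDKN2A was lower and CDKN2B higher, each without overlap. The size of the ratio rests on the lengths used: with the longest annotated transcript of each gene in place of all exonic bases (1283 against 4329 bases for CDKN2A), it was 3.16 ± 0.216 and 5.40 ± 0.385. The quotient of the groups does not depend on that choice, but the sum does: with the longest transcripts it was 98.4, 109 and 110 in siC1QBP against 113, 131 and 136 in siNC, without overlap.

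**Figure D2:**
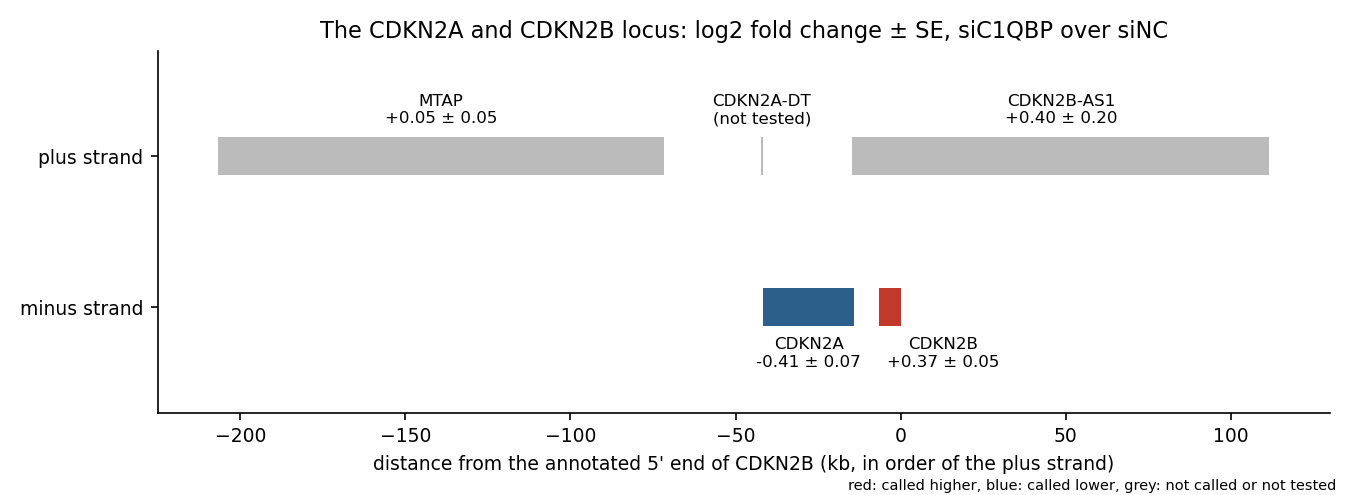
Map of the CDKN2A and CDKN2B locus to scale, with distance from the 5′ end of CDKN2B in kb along the x axis, plus-strand genes above and minus-strand genes below, and each gene's log2 fold change ± SE. CDKN2B (red, 0.37) and CDKN2A (blue, -0.41) are the called genes; MTAP and CDKN2B-AS1 (grey) were not called and CDKN2A-DT was not tested.

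None of the listed neighbours that were tested at the locus was called. Only listed neighbours were looked at, not every annotated gene of the region. MTAP, a methionine salvage enzyme on the far side of CDKN2A, was at 126, 123 and 121 CPM in siC1QBP and 124, 115 and 117 in siNC (log2 fold change 0.05, SE 0.05, edgeR adjusted p = 0.506). The antisense transcript CDKN2B-AS1 (ANRIL) was low, at 66, 84 and 66 counts in siC1QBP and 58, 56 and 57 in siNC (0.40, SE 0.20, adjusted p = 0.190). DMRTA1, the next gene beyond CDKN2B-AS1, was at 8.50, 9.98 and 11.8 CPM against 12.3, 10.6 and 11.2 (-0.17, SE 0.13, adjusted p = 0.404). At an unadjusted p under 0.05, 0 of these 3 genes passed, and DESeq2 and limma-voom called 0. The share of all tested genes at that unadjusted threshold is not given here. This and later unadjusted counts therefore stand without a background. CDKN2A-DT, with at most 7 counts in a library, was not tested, and CDKN2A-AS1 is not analysed here. In the GENCODE release 29 annotation, 341 bases (7.88%) of the CDKN2A exons overlap exons of CDKN2B-AS1 on the other strand. CDKN2B exons overlap no exon of another gene, but all of CDKN2B lies within the span of CDKN2B-AS1 (21994778 to 22121097, plus strand). The libraries mark strand, but the counting program's strand setting is not given in the sources used here. Reads over the bases shared by CDKN2A and CDKN2B-AS1 exons therefore cannot be told apart.

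CDKN2C (ENSG00000123080, chromosome 1, 50960745 to 50974633, plus strand), which encodes p18, was at 24.6, 26.8 and 25.1 CPM in siC1QBP and at 36.6, 38.8 and 36.1 CPM in siNC. The groups were well apart, the nearest libraries being 26.8 and 36.1. The means were 25.5 ± 1.12 and 37.2 ± 1.40 CPM, a log2 fold change of -0.54 (SE 0.07), or 68.6% of the control, the lowest among the 10 genes. With a library left out it was -0.58 to -0.51. CDKN2D (ENSG00000129355, chromosome 19, 10566462 to 10569059, minus strand), which encodes p19, was at 8.45, 15.4 and 12.1 CPM in siC1QBP and 12.5, 18.3 and 14.5 CPM in siNC. Its groups overlapped, and its spread relative to the mean was the widest among the 10 genes in each group (12.0 ± 3.48 and 15.1 ± 2.91 CPM). The log2 fold change was -0.34 (SE 0.17) and it was not called. It was -0.14 without siC1QBP replicate 1 and -0.18 without siNC replicate 2, and -0.55, then called, without siC1QBP replicate 2.

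The CIP/KIP genes differed little. CDKN1A (ENSG00000124762, chromosome 6, 36676460 to 36687339, plus strand), the p53 target that encodes p21, was at 162, 173 and 172 CPM in siC1QBP and 165, 191 and 181 CPM in siNC. The groups overlapped, with means of 169 ± 5.72 and 179 ± 13.1 CPM and a log2 fold change of -0.09 (SE 0.05), not called in any setting. CDKN1B (ENSG00000111276, chromosome 12, 12715058 to 12722371, plus strand), which encodes p27, was at 94.5, 102 and 106 CPM in siC1QBP and 106, 115 and 114 CPM in siNC. The nearest libraries, at 105.6 and 106.4 CPM, only just did not overlap. Its log2 fold change was -0.15 (SE 0.05), not called, and -0.19, then called, without siNC replicate 1. CDKN1C (ENSG00000129757, chromosome 11, 2883213 to 2885773, minus strand), which encodes p57 and is an imprinted gene, was the least abundant of the 10. Its libraries held 54 to 66 counts each, with 3.27 ± 0.386 CPM in siC1QBP and 3.41 ± 0.257 in siNC. Its log2 fold change was -0.06 (SE 0.19), and at this depth a difference of the size seen for CDKN1B could not be told from 0.

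The kinases CDK4 and CDK6 differed in opposite directions, with only CDK6 called. CDK6 (ENSG00000105810, chromosome 7, 92604921 to 92836594, minus strand) was at 530, 468 and 477 CPM in siC1QBP and 380, 371 and 373 CPM in siNC. Every siC1QBP library was above every siNC library, and siC1QBP replicate 1 was the highest. The means were 491 ± 33.4 and 375 ± 4.89 CPM, a log2 fold change of 0.39 (SE 0.05), or 131% of the control, and 0.33 to 0.42 with a library left out. CDK4 (ENSG00000135446, chromosome 12, 57747727 to 57756013, minus strand) was at 72.3, 78.8 and 76.4 CPM in siC1QBP and 84.3, 80.4 and 82.3 CPM in siNC. The groups did not overlap, but by little, and the log2 fold change of -0.12 (SE 0.05) was not called in any setting. Of the CDK4 exonic bases, 1369 (43.2%) overlap exons of TSPAN31 on the other strand. TSPAN31 was at 12.1, 15.4 and 13.9 CPM in siC1QBP and 16.4, 14.4 and 13.4 in siNC (log2 fold change -0.09, SE 0.11, edgeR adjusted p = 0.630).

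Within each library, the CDK6 to CDK4 ratio of levels per kilobase was 1.89, 1.54 and 1.61 in siC1QBP and 1.17, 1.19 and 1.17 in siNC. The siNC libraries lay close together, and all siC1QBP libraries were above them, with means of 1.68 ± 0.189 and 1.18 ± 0.0146. This separation follows from the genes themselves, since CDK6 was higher and CDK4 lower, each without overlap. The siNC spread of the ratio is below the counting error of CDK4 at 1535, 1620 and 1511 counts, so its SD understates the uncertainty. CDK6 made up 62.6% ± 2.56 of the CDK4 and CDK6 sum in siC1QBP and 54.1% ± 0.307 in siNC. Which kinase was ahead in the control depends on the length used, since the ratio with the longest annotated transcripts was 0.814 ± 0.0101 in siNC and 1.16 ± 0.131 in siC1QBP.

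CDK14 (ENSG00000058091, chromosome 7, 90466424 to 91210590, plus strand) is a kinase of the PFTAIRE group that works with cyclin Y at the membrane in Wnt signalling. It had the largest difference of the 10 genes. Its level was 90.2, 82.5 and 79.2 CPM in siC1QBP and 47.9, 47.8 and 48.4 CPM in siNC. The siNC libraries were nearly equal, with a coefficient of variation of 0.697%, and the lowest siC1QBP library was far above them. That siNC spread is below the counting error at 873, 963 and 889 counts, so the siNC SD understates the uncertainty. The means were 84.0 ± 5.64 and 48.0 ± 0.335 CPM, a log2 fold change of 0.81 (SE 0.06), or 175% of the control, and 0.75 to 0.84 with a library left out. CDK14 and CDK6 lie 1.39 Mb apart on chromosome 7. The genes between them were looked at after the values of both were seen. Of these, 12 were tested, and edgeR called 0 higher (background 6.47%) and 2 lower (background 7.84%). Those were CYP51A1, a sterol synthesis enzyme (36.2 ± 3.36 against 45.7 ± 2.20 CPM, -0.34, SE 0.07, adjusted p = 0.00522), and FZD1, a Wnt receptor (37.1 ± 2.06 against 43.8 ± 1.44 CPM, -0.24, SE 0.07, adjusted p = 0.0200). The median of the 12 was -0.05. At an unadjusted p under 0.05, 1 was higher and 3 were lower, and DESeq2 and limma-voom each called 0 higher and 2 in all.

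**Figure D3:**
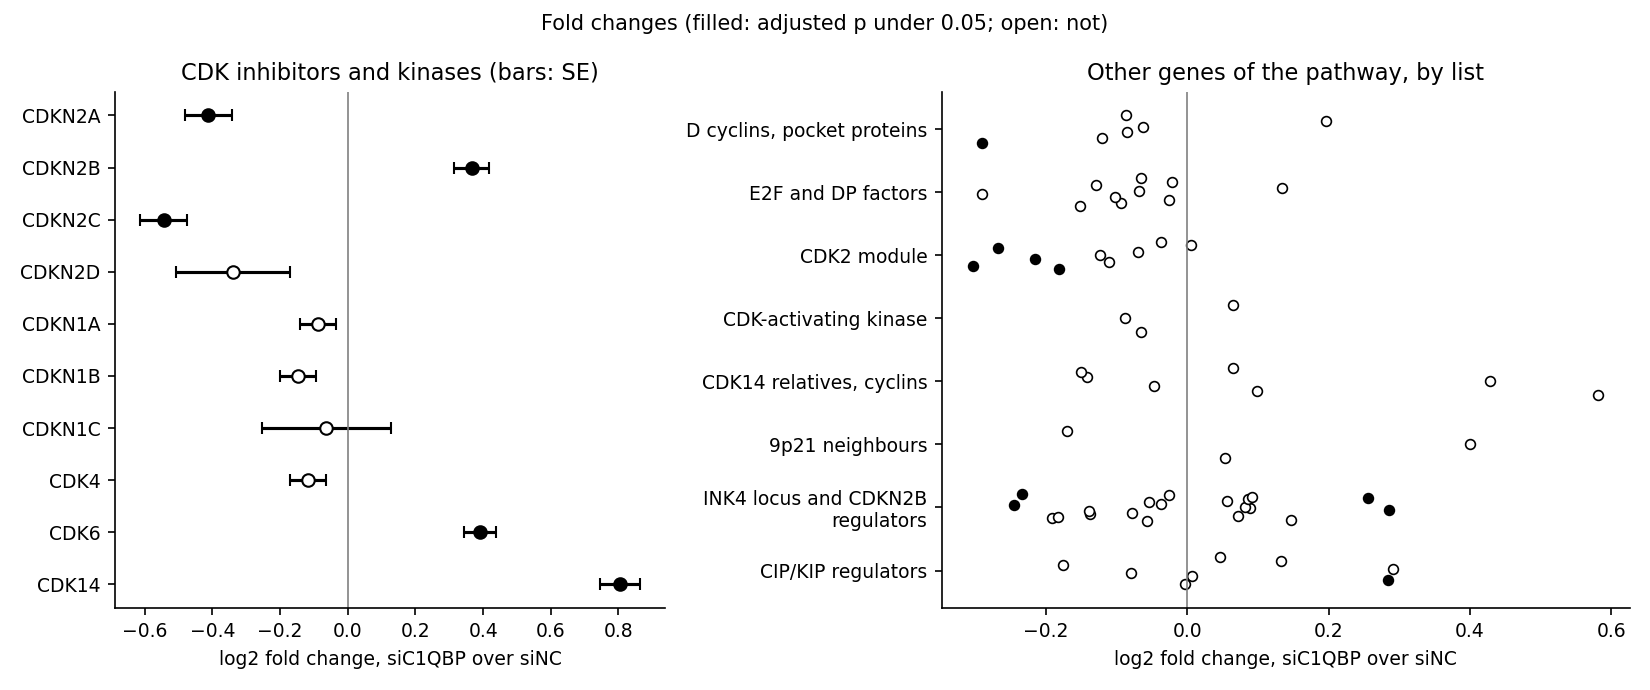
Log2 fold changes, siC1QBP over siNC, with the 10 genes and their SE at the left and the other pathway genes by list at the right, filled where the adjusted p was under 0.05 and open where not. CDK14 lies farthest to the right at 0.81 and CDKN2C farthest to the left of the 10 at -0.54.

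Gene length moved with the fold changes over all tested genes. When the 15530 genes were ordered by exonic length and split into 5 bins of 3106, 90 genes of the shortest bin were called higher and 354 lower, against 396 higher and 99 lower in the longest. The median log2 fold change was -0.04 in the shortest and 0.06 in the longest bin. CDKN2D lies in the shortest bin, CDKN2C, CDKN1A, CDKN1B, CDKN1C and CDK4 in the second, CDKN2A and CDKN2B in the third, CDK14 in the fourth and CDK6 in the longest. The exonic lengths of CDKN2A and CDKN2B are close, at 4329 and 4058 bases, while CDK6 has 12260 and CDK4 3168. In the second bin (2292 to 3760 bases), which holds CDKN2C, 116 genes were called higher and 360 lower. Of the pathway genes given below, CKS1B (2338 bases), CCNE1 (2550) and CCNA2 (2798) have lengths in that range. The part of length in the differences of CDK6, CDK14, CDKN2C and these pathway genes was not tested.

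In order of their siNC level per kilobase, the genes ran from CDKN1A at 58.8 ± 4.30 CPM per kilobase over CDKN1B at 39.7, CDKN2A at 31.7 ± 3.29, CDK6 at 30.6 ± 0.399, CDK4 at 26.0, CDKN2B at 19.0, CDKN2C at 11.2 ± 0.423, CDKN2D at 10.1 ± 1.94 and CDK14 at 7.02 to CDKN1C at 1.38. Neighbours overlapped between libraries for CDKN2A with CDK6 and for CDKN2C with CDKN2D. In siC1QBP, CDKN1A stayed first at 55.3 and CDK6 stood second at 40.1 ± 2.72, followed by CDKN1B at 35.9 ± 2.02. CDKN2B at 24.5 ± 0.799, CDK4 at 23.9 ± 1.04 and CDKN2A at 23.8 ± 1.79 came next, and these 3 overlapped. CDK14 at 12.3 was above CDKN2D at 7.98 ± 2.32 and CDKN2C at 7.69 ± 0.338, which overlapped, and CDKN1C was last at 1.32. These positions rest on the exonic length of each gene: with the longest annotated transcript CDKN2A came first in both groups, at 107 CPM per kilobase in siNC and 80.3 in siC1QBP.

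**Figure D4:**
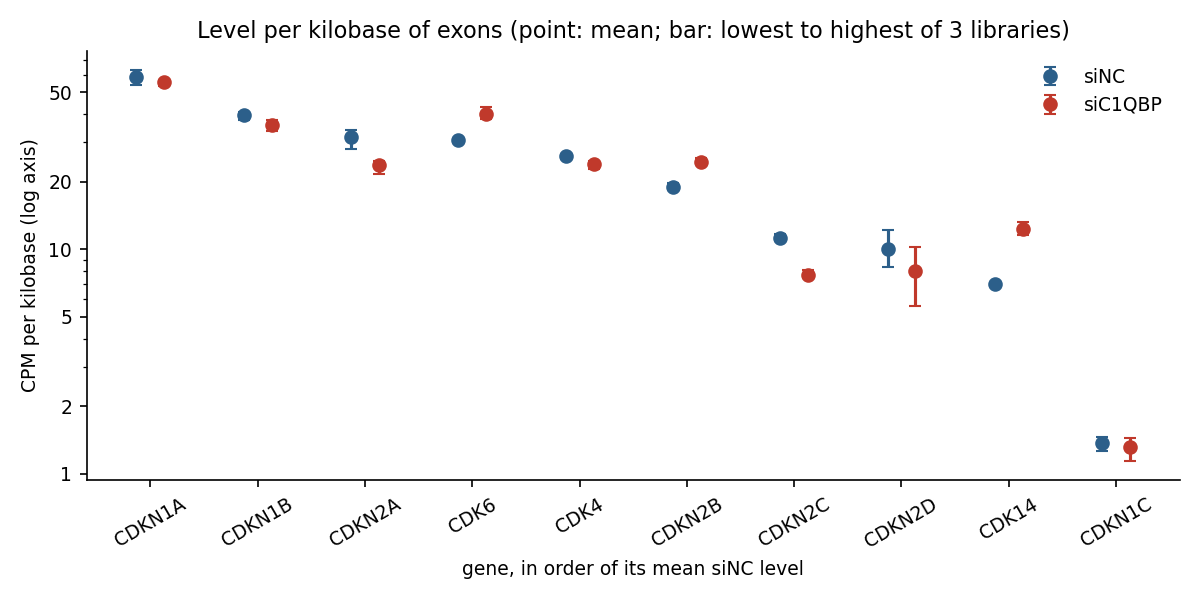
Level per kilobase of exons (log axis) of the 10 genes in order of their siNC mean, with points for group means and bars from the lowest to the highest of 3 libraries. CDKN1A is the highest in both groups and CDKN1C the lowest; CDK6, CDKN2B and CDK14 lie higher in siC1QBP.

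The sum of the 4 INK4 genes per kilobase was 58.9, 67.2 and 65.9 in siC1QBP and 65.6, 75.9 and 74.4 in siNC. The groups overlapped on this sum, while its make-up differed: CDKN2A was 37.2% ± 0.410 of it in siC1QBP and 44.0% ± 1.67 in siNC, and CDKN2B was 38.4% ± 2.60 and 26.5% ± 1.42. Both the overlap and the shares rest on the lengths used. With the longest annotated transcripts the INK4 sum was 113, 129 and 127 in siC1QBP and 135, 157 and 158 in siNC, without overlap. On those lengths CDKN2A was 65.3% ± 0.410 of the sum in siC1QBP and 71.2% ± 1.40 in siNC, and CDKN2B was 20.8% ± 1.42 and 13.2% ± 0.811. The CIP/KIP sum was 92.5 ± 3.76 in siC1QBP and 99.9 ± 5.77 in siNC, and these groups also overlapped. The sum of CDK4 and CDK6 was 66.0, 63.0 and 63.0 in siC1QBP and 57.6, 55.7 and 56.4 in siNC, without overlap. The INK4 sum divided by the CDK4 and CDK6 sum was 0.892, 1.07 and 1.05 in siC1QBP and 1.14, 1.36 and 1.32 in siNC. Replicate 1 was the lowest of each group, and the groups did not overlap (1.00 ± 0.0953 against 1.27 ± 0.119). This ratio is built from the same chosen genes, and the CDK4 and CDK6 sum was itself without overlap, so its separation is a description. With the longest annotated transcripts the ratio was 1.56 ± 0.138 against 2.09 ± 0.219, with the same order. All of these are RNA levels, and no protein was measured.

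**Figure D5:**
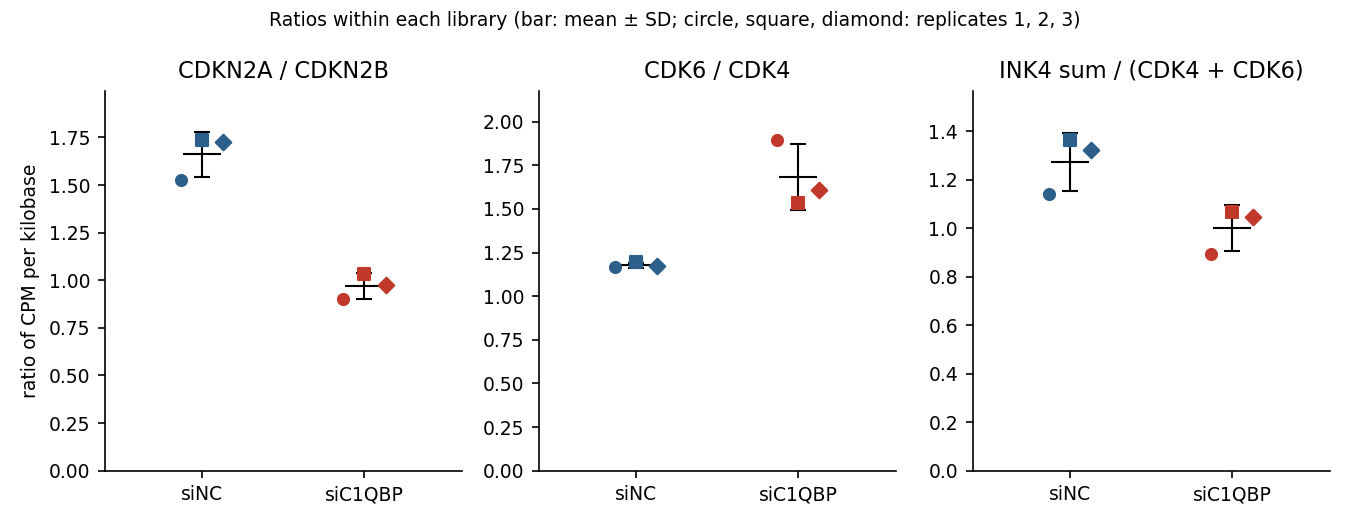
Ratios of levels per kilobase within each library (each axis from 0), with replicates 1 to 3 as circle, square and diamond and a bar for the mean ± SD. CDKN2A over CDKN2B and the INK4 sum over the CDK4 and CDK6 sum are lower in all siC1QBP libraries, and CDK6 over CDK4 is higher in all of them. For CDKN2A over CDKN2B and CDK6 over CDK4 this follows from the single genes, which did not overlap. The INK4 sum over the CDK4 and CDK6 sum is built from the same chosen genes and is a description too.

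Other genes of the pathway were taken from lists of genes with known roles. The lists were chosen with earlier results of these data known, so their shares are a description. Of these genes, 66 were tested: 3 rose, 7 fell and 56 were not called. That is 15.2% called against the background of 14.3%, with a median log2 fold change of -0.06. Leaving out siNC replicate 2 gave 5 calls, and leaving out siNC replicate 3 gave 6. Among the D cyclins and pocket proteins, 0 of 6 tested rose, 1 fell and 5 were not called (16.7% called), with a median of -0.09. The gene that fell was CCND1, which encodes cyclin D1, the partner of CDK4 and CDK6. It was at 874, 775 and 788 CPM in siC1QBP and 994, 1009 and 979 in siNC, below all controls (log2 fold change -0.29, SE 0.05, edgeR adjusted p = 0.00054). CCND2 did not pass the low-count filter.

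Of the 10 E2F and DP genes, edgeR called 0, against 14.3% of all tested genes, with a median of -0.08. At an unadjusted p under 0.05, E2F7 was higher and E2F1 and E2F5 were lower, and DESeq2 and limma-voom called 0. The most abundant were TFDP1, the DP partner of E2F factors (205 ± 4.35 against 208 ± 7.52 CPM, log2 fold change -0.02, adjusted p = 0.797), and E2F7, a repressor of the family (161 ± 6.07 against 147 ± 4.46 CPM, 0.13, SE 0.05, adjusted p = 0.0631). E2F7 was called without siC1QBP replicate 1 (adjusted p = 0.0359), with library size as the only scaling (0.0305), with at least 5 CPM required (0.0296) and among protein-coding genes alone (0.0397).

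In the CDK2 module, where CIP/KIP proteins act, 0 of 9 rose, 4 fell and 5 were not called, with a median of -0.12. Called were 44.4% of the 9, all lower, while 14.3% of all tested genes were called and 7.84% called lower. CKS1B, an adaptor in the degradation of p27, was at 107 ± 6.59 CPM in siC1QBP and 129 ± 0.701 in siNC (-0.27, SE 0.05, edgeR adjusted p = 0.00221). The other falls were smaller or less stable. CCNA2 (cyclin A2) was at 142 ± 11.8 against 164 ± 6.22 CPM (-0.22, adjusted p = 0.0162; 0.0844 without siC1QBP replicate 2 and 0.104 without siNC replicate 2). CDK2 itself was at 64.4 ± 1.43 against 73.1 ± 0.460 CPM (-0.18, edgeR adjusted p = 0.0259). The siNC spreads of CKS1B and CDK2 are below the counting error of their counts, so those SDs understate the uncertainty. CDK2 lost its call when any 1 of 3 libraries was left out: siC1QBP replicate 3 (adjusted p = 0.0915), or replicate 2 (0.0818) or 3 (0.0972) of siNC. It was also lost with library size as the only scaling (adjusted p = 0.0536). CCNE1 (cyclin E1) was at 20.8 ± 1.53 against 25.7 ± 2.80 CPM (-0.30, adjusted p = 0.0343). Its call was lost without any one of siC1QBP replicates 1 and 3 and siNC replicates 2 and 3 (adjusted p = 0.0652 to 0.164), as it was when counts were scaled by library size alone (0.0560).

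The CDK-activating kinase (3 genes, median -0.07) and the relatives and cyclins of CDK14 (7 genes, median 0.06) had 0 calls by edgeR, DESeq2 and limma-voom. At an unadjusted p under 0.05 these were 0 of 3 and 2 of 7 genes, CCNY and CDK15. CDK7, the activating kinase, had a log2 fold change of -0.07 and its partner CCNH -0.09 (adjusted p = 0.457 and 0.397). CDK16, the most abundant relative of CDK14, was at 136 ± 5.42 against 127 ± 3.83 CPM (0.10, adjusted p = 0.188). CDK15 was low, at 4.32 ± 0.431 against 2.87 ± 0.518 CPM (0.58, SE 0.19, edgeR adjusted p = 0.0545). CDK18, also low, was at 2.97 ± 0.536 against 2.20 ± 0.264 CPM (0.43, SE 0.22, edgeR adjusted p = 0.221). CDK17 and CDK5 went the other way, with log2 fold changes of -0.05 and -0.14. Of the 7 genes, 4 had positive log2 fold changes. CCNY, the cyclin that binds CDK14, was at 91.0 ± 2.55 against 101 ± 5.20 CPM (-0.15, adjusted p = 0.0643, 0.0251 without siNC replicate 1 and 0.0454 when genes with at least 1 count were kept).

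Of 20 genes known as regulators of the INK4 locus or of CDKN2B, 2 rose, 2 fell and 16 were not called, with a median of -0.03. The share called was 20%, against 14.3% of all tested genes. At an unadjusted p under 0.05, 4 were higher, with ETS1 and TGFBR2 added, and 4 lower, with RING1 and SUZ12 added. DESeq2 and limma-voom each called 4 of the 20, 2 of them higher. TGFBR1, the type I TGF-beta receptor, rose (65.7 ± 3.45 against 55.0 ± 0.756 CPM, 0.26, SE 0.06, edgeR adjusted p = 0.00623). KDM6B, which removes the Polycomb mark from histone H3, also rose (24.9 ± 2.31 against 20.4 ± 0.875 CPM, 0.29, SE 0.09, adjusted p = 0.0331). The KDM6B call was lost without siC1QBP replicate 2 or 3 or any siNC replicate (adjusted p = 0.0818 to 0.137). ID1, an inhibitor of transcription factors that activate p16, fell (228 ± 5.33 against 270 ± 19.1 CPM, -0.24, SE 0.05, adjusted p = 0.00371). MYC, which represses CDKN2B together with ZBTB17, fell as well (73.2 ± 5.11 against 86.1 ± 0.584 CPM, -0.23, SE 0.06, edgeR adjusted p = 0.0101). The siNC spreads of MYC and TGFBR1 are also below the counting error of their counts, so those SDs understate the uncertainty. Among 8 regulators of the CIP/KIP genes, 1 rose, 0 fell and 7 were not called, with a median of 0.03. Here the share called was 12.5%, against the same 14.3%. MDM2, a p53 target that also restrains p53, was the one that rose (63.4 ± 3.88 against 52.1 ± 4.59 CPM, 0.28, SE 0.07, adjusted p = 0.0104). Without siNC replicate 2 or 3 the adjusted p of MDM2 was 0.0825 or 0.0681. At an unadjusted p under 0.05, 3 of the 8 were higher (MDM2, FOXO4 and KLF6) and 1 was lower (KLF4), and DESeq2 and limma-voom each called 1 of the 8, higher. The unadjusted counts of both lists have no background here, so nothing is read from them.

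The genes whose levels over the 6 libraries ran closest to 3 of the INK4 genes were found by the root mean square distance between log2 CPM values centred on each gene's mean, among 10617 protein-coding genes with at least 5 CPM. For CDKN2A they were DRAP1 (distance 0.0317), TEDC1 (0.0320) and C16orf74 (0.0324). For CDKN2B they were IRAK2 (0.0287), PELI1 (0.0343) and SERINC5 (0.0348). For CDKN2C they were TNFAIP2 (0.0361), TXNDC5 (0.0427) and LFNG (0.0445). None of these 9 lies on chromosome 9, but the share of the 10617 genes that does is not given here, so nothing is read from that. The 9 were picked as the closest, so their small distances are a description, and the 6 values of each pair share their libraries. IRAK2 was at 59.4 ± 1.05 CPM in siC1QBP and 46.9 ± 1.10 in siNC, and TNFAIP2 at 742 ± 27.9 and 1074 ± 14.1 CPM.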

How the data were processed

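Per the labels' protocols, total RNA was extracted with an RNeasy kit, and the 6 libraries were built with a NEBNext kit that marks strand. The values the authors deposited are unnormalized whole-number read counts for each gene, with gene lengths in bases that equal the exonic bases of GENCODE release 29 for all 10 genes. The submitters' processing notes name hg38; aligner, counter and strand setting: not given in the sources used here. Groups come from the treatment labels.

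Counts were tested with the edgeR 4.0.16 quasi-likelihood test in R 4.3.3 (TMM scaling, filterByExpr, treatment as the only term), with Benjamini-Hochberg adjusted p-values over all 15530 genes kept by the filter, after a check on simulated data. Alternatives were DESeq2 1.42.0, limma-voom 3.58.1, other scalings, filters and gene sets, a replicate block, a threshold of 0.01 and leaving out each library. Tables used Python 3.11.15. The 10 genes and all lists were chosen with earlier results of these data known. Named from each list were up to 4 called genes with the smallest p and up to 2 called the other way, or, with no call, the 2 with the highest CPM; all tested 9p21 neighbours; and the 3 closest genes for CDKN2A, CDKN2B and CDKN2C. No gene was left out by hand. The relatives of CDK14 given beyond this rule were named with their values known.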

Additional observations from a re-analysis of the deposited data

How the results depend on the processing

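The log2 fold changes of the 10 genes kept their direction in all 16 alternatives, except that CDKN1C, at -0.06, was 0.03 with a library left out and had no value under the filter of at least 5 CPM; CDKN2A, CDKN2B, CDKN2C, CDK6 and CDK14 were called in each. Other settings moved counts, and the cause was not tested. At an adjusted p under 0.01, 1057 genes were called (478 higher, 579 lower) against 2222 (1005 and 1217), and 4 pathway genes (1 higher, 3 lower) against 10 (3 and 7). With library size only, 1253 genes were higher and 908 lower, and 7 pathway genes were higher and 5 lower, CDK2 and CCNE1 losing their calls. Higher pathway calls were 6 with at least 5 CPM and 7 among protein-coding genes. With at least 1 count kept, 4 of the 10 genes were called lower against 2.

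With 1 library left out, 1105 to 2583 genes were called (524 to 1115 higher, 581 to 1468 lower), 5 to 6 of the 10 genes (3 higher, 2 to 3 lower) and 5 to 12 pathway genes (1 to 5 higher, 4 to 9 lower). The lowest gene counts, 1105 and 1178, came from leaving out replicate 2 or replicate 3 of siNC. The log2 fold change of TFDP1, -0.02, was 0.0041 with library size only and -0.050 to 0.0027 with a library left out, highest when siNC replicate 3 was dropped.

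Correlations of deviations between same-numbered libraries of the 2 groups were small, at 0.0433, 0.0330 and -0.00941. Libraries numbered 1 and 2 correlated best with their own number, while those numbered 3 did not. Whether the numbers pair the libraries cannot be told from these values. With the replicate block, 3092 genes were called (1334 higher, 1758 lower), 4 of the 10 genes lower (adding CDKN1B and CDKN2D) and 18 pathway genes (7 higher, 11 lower), E2F7 (adjusted p = 0.0239) and CCNY (0.0222) among them.

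With the longest annotated transcript as the length, siNC levels were CDKN2A 107, CDKN2C 12.8, CDKN1A 79.1, CDKN1B 42.0, CDKN1C 1.76, CDK4 39.6, CDK6 32.3 and CDK14 9.30 CPM per kilobase; siC1QBP levels were CDKN2A 80.3, CDKN2B 25.4, CDKN2C 8.79, CDKN1A 74.4, CDKN1B 37.9, CDKN1C 1.69, CDK4 36.5 and CDK14 16.3. Depth limits CDKN1C and CDKN2B-AS1, which held under 100 counts in each library.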
